A study of Homo sapiens with 4 samples.

Results

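The enzymes described here are 9 genes of the tricarboxylic acid (TCA) cycle: CS, DLST, DLD, SUCLG1, SUCLA2, SUCLG2, FH, MDH1 and MDH2. They were chosen by gene symbol, with the isocitrate and succinate dehydrogenases left out, and make up 9 of the 61806 genes in the deposited table. Their mRNA was measured by RNA-seq in 2 human bone cancer cell lines, the chondrosarcoma line JJ012 and the osteosarcoma line 143B. Both lines were kept in suspension, that is detached from the culture surface. Each line gave 1 untreated control library and 1 library from cells given melatonin (1 mM, 72 h), so 4 libraries were compared, with 1 per condition. The labels name no genetic change in any group, and each tumor type is represented by a single line. The study asked how melatonin alters the metabolism of detached bone cancer cells.

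The TCA cycle oxidizes acetyl groups in the mitochondrial matrix and passes the electrons to the respiratory chain. Citrate synthase (CS) joins acetyl-CoA to oxaloacetate to open the cycle. DLST and DLD are the middle and last subunits of the 2-oxoglutarate dehydrogenase complex, and DLD also serves the pyruvate dehydrogenase complex. Succinyl-CoA ligase pairs the alpha subunit SUCLG1 with a beta subunit, either SUCLA2 for ATP or SUCLG2 for GTP. Fumarase (FH) makes malate from fumarate, and malate dehydrogenase closes the cycle through mitochondrial MDH2, while MDH1 is the cytosolic enzyme of the malate-aspartate shuttle. In cancer cells the cycle is also known as the route by which glutamine carbon, entering as 2-oxoglutarate, becomes precursors for growth.

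The genes lie on different chromosomes, except for a pair on chromosome 2 and a pair on chromosome 7. On hg38 the table places CS (ENSG00000062485) at chr12:56271699-56300391 on the minus strand, MDH1 (ENSG00000014641) at chr2:63588609-63607197 on the plus strand and MDH2 (ENSG00000146701) at chr7:76048051-76067508 on the plus strand. Promoters of these 3 genes are shown because CS was the member that rose with melatonin, and MDH1 and MDH2 were the pair whose ratio differed most between the lines among the ratios taken. The sequences are from RefSeq (GRCh38.p14), run 5′ to 3′ on the gene's strand, and span 250 bases before to 50 bases after the annotated start, so they hold upstream sequence and the first transcribed bases. Capitals mark matches to any of 5 motifs searched on both strands. For CS the window is chr12:56300281-56300580, for MDH1 it is chr2:63588713-63589012 (the upstream of 2 entries), and for MDH2 it is chr7:76047856-76048155.
CS: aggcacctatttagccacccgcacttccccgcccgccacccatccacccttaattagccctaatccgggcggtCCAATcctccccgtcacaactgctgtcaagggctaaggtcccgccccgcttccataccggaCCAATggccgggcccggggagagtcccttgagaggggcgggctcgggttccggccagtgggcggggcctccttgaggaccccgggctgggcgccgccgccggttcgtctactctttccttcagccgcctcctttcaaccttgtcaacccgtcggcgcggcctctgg
MDH1: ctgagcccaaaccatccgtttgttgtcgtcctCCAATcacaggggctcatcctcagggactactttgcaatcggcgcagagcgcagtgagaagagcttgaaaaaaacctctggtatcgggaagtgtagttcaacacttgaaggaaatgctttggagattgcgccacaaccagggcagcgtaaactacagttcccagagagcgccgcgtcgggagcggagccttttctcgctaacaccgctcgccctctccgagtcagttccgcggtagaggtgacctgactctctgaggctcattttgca
MDH2: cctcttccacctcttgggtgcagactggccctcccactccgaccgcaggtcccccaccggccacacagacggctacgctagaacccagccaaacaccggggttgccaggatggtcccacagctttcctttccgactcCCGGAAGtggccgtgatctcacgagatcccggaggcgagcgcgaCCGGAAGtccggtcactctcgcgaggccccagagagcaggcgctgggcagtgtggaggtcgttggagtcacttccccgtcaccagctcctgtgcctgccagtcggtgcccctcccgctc
The capitals are 2 matches to CCAAT (the CCAAT box) in CS, 1 in MDH1, and 2 matches to CCGGAAG (ETS factors such as GABPA) in MDH2.

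All 9 members had a RefSeq promoter, in 11 entries with a GC content between 53% and 70%. CCAAT was found in 6 members (CS, DLD, SUCLG1, SUCLA2, FH and MDH1), and in 34.6% of the 35116 promoters of the same length in the reference. CCGGAAG was found in DLST and MDH2, against 10.3% of all promoters. GCATGCGC (nuclear respiratory factor 1) was found in DLD, against 3.05%, and AAGGTCA (estrogen-related receptors) in SUCLA2, against 3.92%. CACGTG (the E-box) was found in 0 members and in 7.26% of all promoters. A member was counted if any of its entries matched, while the shares are over single promoters. MDH1 held CCAAT in its upstream entry only, and DLD held GCATGCGC in its downstream entry only. None of these motifs is contained in another, and a match is a description of the sequence alone.

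The libraries held between 15889564 and 19218343 counts, of which the members took 18394 in the JJ012 control, 16320 in melatonin-treated JJ012, 9771 in the 143B control and 11721 in melatonin-treated 143B. As a share of all counts this was 0.0957%, 0.101%, 0.0615% and 0.0683%. The share of mitochondrially encoded genes was 6.78% (control) and 4.35% (melatonin) for JJ012, and 1.63% and 2.46% for 143B. With 1 library per condition, no difference could be set against the spread between cultures, and no p-value is given. The chondrocyte markers COL2A1 and ACAN were at or below 0.11 FPKM in every library, and 2 of the 9 chondrocyte markers (SOX9 and COL11A1) were tested in JJ012, where both fell with melatonin, from 15.06 to 6.16 FPKM and from 22.92 to 3.24 FPKM. The summed level of the 9 chondrocyte markers was 39.74 and 9.98 FPKM in JJ012 and 16.92 and 13.41 FPKM in 143B (control first). In 143B SOX9 was at 15.48 and 12.09 FPKM and made up most of both sums, while COL11A1 was at 0.00 FPKM. The osteoblast markers SP7 and ALPL were at or below 0.36 FPKM in every library, while RUNX2 lay between 2.59 and 4.28 FPKM, so each labelled cell type lacked some of its defining markers. The 9 osteoblast markers summed to 109.16 and 70.70 FPKM in JJ012, where COL1A1 and COL1A2 fell, and to 8.52 and 6.88 FPKM in 143B. Most of both JJ012 sums came from a single gene of the list. Of the 6 osteoblast markers tested between the controls, 3 were higher in JJ012, the chondrosarcoma line, and 0 were lower. Over all tested genes 41.3% were higher in JJ012 and 27.4% lower. The 3 markers were below 1 FPKM in the 143B control and passed the filter only through JJ012. They could be called only as higher there, so the count is not read against these shares. The 5 markers of other cell types summed to 2.22 and 0.86 FPKM in JJ012 and to 3.82 and 2.85 FPKM in 143B. Of these, the endothelial gene PECAM1 fell in JJ012, from 1.81 to 0.66 FPKM, and was at 2.40 and 2.04 FPKM in 143B. The epithelial gene EPCAM was at 0.15 and 0.05 FPKM in JJ012 and at 1.40 and 0.79 FPKM in 143B, and was lower in the JJ012 control than in the 143B control. PTPRC (blood cells), CDH5 (endothelium) and CDH1 (epithelium) were at or below 0.14 FPKM in every library. The part of these marker differences in the results was not tested, and in bulk RNA fewer cells of a type and less RNA per cell cannot be told apart.

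To examine how much of each enzyme's mRNA the cells held, the levels were compared in FPKM, a unit per exonic length and per library total. In the JJ012 control, MDH1 (46.35 FPKM) and MDH2 (45.15 FPKM) were the highest members, followed by SUCLG2 (32.47 FPKM), DLST (30.72 FPKM), DLD (16.96 FPKM), SUCLG1 (14.80 FPKM), CS (14.79 FPKM), FH (5.82 FPKM) and SUCLA2 (2.73 FPKM). In the 143B control the order was DLST (42.51 FPKM), MDH2 (32.84 FPKM), CS (19.67 FPKM), SUCLG2 (11.33 FPKM), MDH1 (9.48 FPKM), DLD (6.85 FPKM), SUCLG1 (6.41 FPKM), FH (1.93 FPKM) and SUCLA2 (1.59 FPKM). The malate dehydrogenases thus led in the JJ012 control and DLST led in the 143B control, while FH and SUCLA2 closed the order in all 4 libraries. In melatonin-treated JJ012, MDH1 (38.58 FPKM) was followed by DLST (35.82 FPKM) and MDH2 (35.52 FPKM). Several neighbours in these orders lay close together, such as SUCLG1 and CS in the JJ012 control, and without replicates their order could not be set against a spread.

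**Figure D1:**
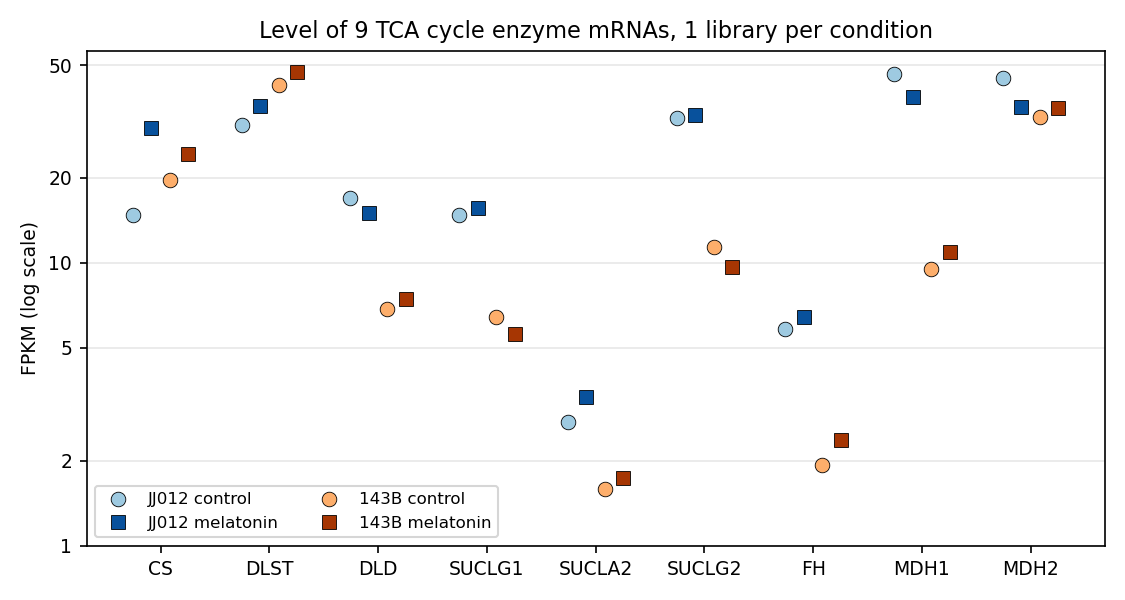
Level of each member in FPKM (log scale) in the 4 libraries, with 1 point per library. Circles are controls and squares are melatonin, in blue for JJ012 and orange for 143B. MDH1 separates the lines most, with 46.35 and 38.58 FPKM in JJ012 against 9.48 and 10.90 FPKM in 143B.

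FH was 8th and SUCLA2 9th in every library also by CPM, which holds no length. The exonic length in the table was 9350 bases for FH and 8879 bases for SUCLA2, the longest among the members. In GENCODE 29 all exons together span 2142 bases for FH and 8928 bases for SUCLA2, which is close to the table for SUCLA2 but not for FH. The longest principal transcript has 1797 bases for FH and 2192 bases for SUCLA2. With principal transcript lengths, chosen after seeing the data, SUCLA2 was still last in all 4 libraries, FH was 7th, DLD was 8th, and CS moved from 5th to 2nd in melatonin-treated JJ012. MDH1 was still first in both JJ012 libraries and DLST in both 143B libraries. On the FPKM scale, length enters the fold changes between libraries only through the pseudocount.

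Counts of some members may hold reads of neighbours. DLD overlaps LAMB1 on the opposite strand, which had 893 and 306 counts in JJ012 and 7594 and 8329 counts in 143B, against 1663 and 1235 counts of DLD in JJ012 and 555 and 650 in 143B (control first). LAMB1 was thus the deeper gene of the pair in 143B and the shallower in JJ012. MDH1 overlaps WDPCP, with between 87 and 333 counts, and CS overlaps CNPY2-AS1, with between 21 and 74 counts, each on the opposite strand. Whether reads were assigned by strand is not given in the sources used here, and without strand reads of such pairs cannot be told apart. The table lists 11 pseudogenes of 6 members, and none of these had more than 28 counts in a library.

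Melatonin was then compared with the control of each line. The log2 fold change was taken on the log2(FPKM + 1) scale, which understates the change of low genes, and a gene was called at an absolute value of at least 0.58, the fold threshold of the study's methods. Beside it stands the ratio of counts scaled to the library total (CPM) with its exact (Clopper-Pearson) 95% interval. PCR copies are not independent molecules, so such an interval describes counting error alone. In JJ012, 1 of the 9 members rose (CS) and 0 fell, while of all 15794 tested genes 19.6% rose and 18.6% fell. In 143B, 0 of the 9 members rose and 0 fell, against 6.09% and 6.65% of 14135 tested genes. The median log2 fold change of the members was 0.07 in JJ012 and 0.10 in 143B, beside 0.01 and 0.03 over all tested genes. The shares called in the members are small counts, and nothing particular to them is read from these shares.

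CS was at 14.79 FPKM (1820 counts) in the JJ012 control and 30.02 FPKM (3102 counts) after melatonin, and at 19.67 FPKM (2001 counts) and 24.31 FPKM (2671 counts) in 143B. Citrate synthase mRNA was thus lowest in the JJ012 control and highest in melatonin-treated JJ012, with both 143B libraries between them. In JJ012 CS rose by 0.97 on the log2 scale, a 2.03-fold higher CPM (95% interval 1.91 to 2.15). In 143B the log2 fold change was 0.29 and the CPM ratio 1.24 (1.17 to 1.31). The log2 fold change of CS in JJ012 lay between 0.80, after the trend with exonic length was subtracted, and 1.28, in TPM, over the other scalings and pseudocount tried, all above 0.58. It passed 1 in TPM, by TMM, in CPM and with a pseudocount of 0.1, and lay below 1 as reported and under the other 3 scalings. Of all tested genes of JJ012, 91.6% had a log2 fold change no higher than that of CS.

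DLST, the succinyltransferase core of the 2-oxoglutarate dehydrogenase complex, was at 30.72 FPKM in the JJ012 control and 35.82 FPKM after melatonin, and at 42.51 and 47.42 FPKM in 143B. The CPM ratio was 1.17 (1.10 to 1.23) in JJ012 and 1.12 (1.06 to 1.17) in 143B, with log2 fold changes of 0.22 and 0.15. DLD, which reoxidizes the lipoyl group of DLST, was at 16.96 and 14.99 FPKM in JJ012 and at 6.85 and 7.42 FPKM in 143B. Its CPM ratio was 0.884 (0.821 to 0.952) in JJ012, with a log2 fold change of -0.17, and 1.08 (0.967 to 1.22) in 143B, with a log2 fold change of 0.10. Both subunits stayed under the call threshold in both lines, and the value of DLD in JJ012 turned to 0.10 in TPM.

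For succinyl-CoA ligase, SUCLG1 was at 14.80 and 15.58 FPKM in JJ012 and at 6.41 and 5.61 FPKM in 143B. SUCLG2 was at 32.47 and 33.22 FPKM in JJ012 and at 11.33 and 9.68 FPKM in 143B. SUCLA2 was at 2.73 and 3.36 FPKM in JJ012 and at 1.59 and 1.74 FPKM in 143B. None of the 3 subunits was called in either line. Their log2 fold changes in JJ012 were 0.07 (SUCLG1), 0.03 (SUCLG2) and 0.23 (SUCLA2), and in 143B -0.16, -0.21 and 0.08 in the same order. The counting interval of the CPM ratio held 1 for SUCLG1 in both lines (0.968 to 1.14 in JJ012 and 0.762 to 1.01 in 143B), for SUCLG2 in JJ012 (0.957 to 1.09) and for SUCLA2 in 143B (0.909 to 1.31). It lay above 1 for SUCLA2 in JJ012 (1.08 to 1.40) and below 1 for SUCLG2 in 143B (0.756 to 0.965). In JJ012 the sign of SUCLG2 turned when mitochondrially encoded genes were left out of the total (-0.00) and that of SUCLA2 when the length trend was subtracted (-0.03).

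FH was at 5.82 FPKM (1046 counts) in the JJ012 control and 6.44 FPKM (972 counts) after melatonin, and at 1.93 FPKM (286 counts) and 2.36 FPKM (379 counts) in 143B. Both JJ012 libraries held more fumarase mRNA than either 143B library. The CPM ratio was 1.11 (1.01 to 1.21) in JJ012 and 1.23 (1.05 to 1.44) in 143B, with log2 fold changes of 0.13 and 0.20. With the length trend subtracted the JJ012 value was -0.17.

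MDH1 was at 46.35 FPKM (4445 counts) in the JJ012 control and 38.58 FPKM (3108 counts) after melatonin, and at 9.48 FPKM (752 counts) and 10.90 FPKM (934 counts) in 143B. MDH2 was at 45.15 FPKM (3159 counts) and 35.52 FPKM (2088 counts) in JJ012, and at 32.84 FPKM (1900 counts) and 35.30 FPKM (2206 counts) in 143B. In JJ012 both malate dehydrogenases were at lower values after melatonin, though short of the call threshold. Their CPM ratios were 0.832 (0.795 to 0.872) for MDH1 and 0.787 (0.744 to 0.832) for MDH2, and the log2 fold changes -0.26 and -0.34. In 143B the CPM ratios were 1.15 (1.04 to 1.27) and 1.07 (1.01 to 1.14), and the log2 fold changes 0.18 and 0.10. In TPM, which moved the median tested gene of JJ012 from 0.01 to 0.27, the JJ012 log2 fold changes were 0.01 for MDH1 and -0.07 for MDH2, so the direction of MDH1 depended on the scaling.

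**Figure D2:**
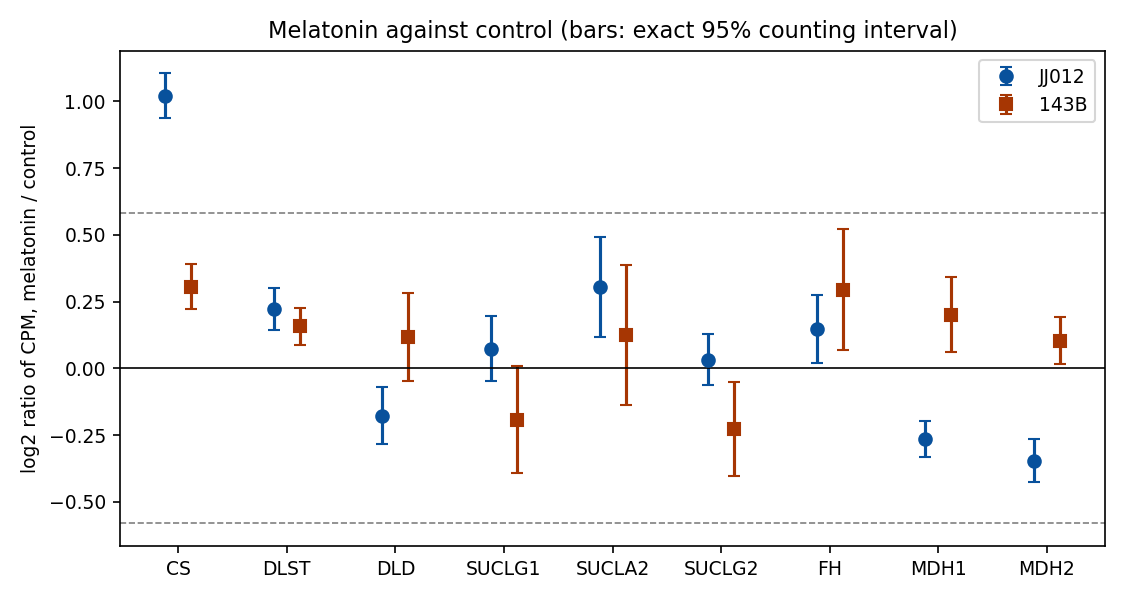
Log2 ratio of CPM, melatonin over control, for each member in JJ012 (circles) and 143B (squares), with bars for the exact 95% counting interval. Dashed lines mark -0.58 and 0.58, the threshold that was applied on the FPKM + 1 scale. CS in JJ012 lies above the upper line, and every other point lies between the lines.

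The change with melatonin was next compared between the lines, as the log2 CPM ratio of JJ012 minus that of 143B with a 95% normal interval from the 4 counts. The 2 ratios share no library. For CS the difference was 0.72 (0.60 to 0.83), that is, a larger ratio in JJ012. For MDH1 it was -0.47 (-0.62 to -0.31) and for MDH2 -0.45 (-0.57 to -0.33), both ratios being below 1 in JJ012 and above 1 in 143B. The interval also left out 0 for DLD (-0.29, -0.49 to -0.10), SUCLG1 (0.27, 0.04 to 0.50) and SUCLG2 (0.26, 0.06 to 0.46). It held 0 for DLST (0.06, -0.04 to 0.17), SUCLA2 (0.18, -0.14 to 0.49) and FH (-0.15, -0.40 to 0.11). In TPM, chosen after seeing the data, every difference was higher by the same amount, with 1.05 for CS, -0.13 for MDH1, -0.12 for MDH2 and 0.0381 for DLD.

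Ratios between members within a library do not depend on how libraries are scaled. The ratio of CS to MDH2, which act on either side of oxaloacetate, was 0.328 (control) and 0.845 (melatonin) in JJ012, and 0.599 and 0.689 in 143B. In JJ012 CS had the highest and MDH2 the lowest melatonin CPM ratio of the members, so no other pair of members differed more there. The ratio of CS to MDH2 was chosen after seeing the data, and its intervals do not allow for that choice. It was 2.58-fold higher with melatonin in JJ012 (95% counting interval 2.38 to 2.80) and 1.15-fold higher in 143B (1.06 to 1.25). As a ratio of counts, without length, it was 0.576 and 1.49 in JJ012 and 1.05 and 1.21 in 143B. The ratio of MDH2 to MDH1 was 0.974 and 0.921 in JJ012 and 3.46 and 3.24 in 143B. Melatonin moved it by 0.945-fold (0.880 to 1.02) in JJ012 and 0.935-fold (0.834 to 1.05) in 143B, and the counting interval held 1 in both lines, although each enzyme's own CPM ratio had an interval that left out 1.

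The ratio of DLD to DLST was 0.552 (control) and 0.418 (melatonin) in JJ012, and 0.161 and 0.156 in 143B. In JJ012 the melatonin ratio was 0.758 of the control ratio (0.692 to 0.830), and in 143B it was 0.971 (0.859 to 1.10). The ratio of the ATP-forming subunit SUCLA2 to the GTP-forming SUCLG2 was 0.0841 and 0.101 in JJ012 and 0.140 and 0.180 in 143B. SUCLG2 thus exceeded SUCLA2 in every library, and the ratio was 1.20-fold higher (1.04 to 1.39) with melatonin in JJ012 and 1.28-fold higher (1.03 to 1.59) in 143B. The ratio of SUCLG1 to the sum of both beta subunits was 0.420 and 0.426 in JJ012 and 0.496 and 0.491 in 143B, with a melatonin change of 1.01-fold (0.915 to 1.12) and 0.990-fold (0.836 to 1.17).

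As shares of the members' summed FPKM, CS made up 7.05% (control) and 14.1% (melatonin) in JJ012, and 14.8% and 16.8% in 143B. MDH1 made up 22.1% and 18.1% in JJ012 but 7.15% and 7.53% in 143B. DLST made up 14.6% and 16.8% in JJ012 and 32.1% and 32.8% in 143B. The sum itself was 209.79 and 213.53 FPKM in JJ012, a ratio of 1.02, and 132.61 and 144.74 FPKM in 143B, a ratio of 1.09. On the FPKM scale the JJ012 total of these mRNAs thus stayed close to the control while CS took a larger part of it. The FPKM of all genes summed to 280482 in the JJ012 control and 231739 after melatonin, so in TPM the members' total was higher after melatonin. The shares within the members do not depend on this scaling.

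**Figure D3:**
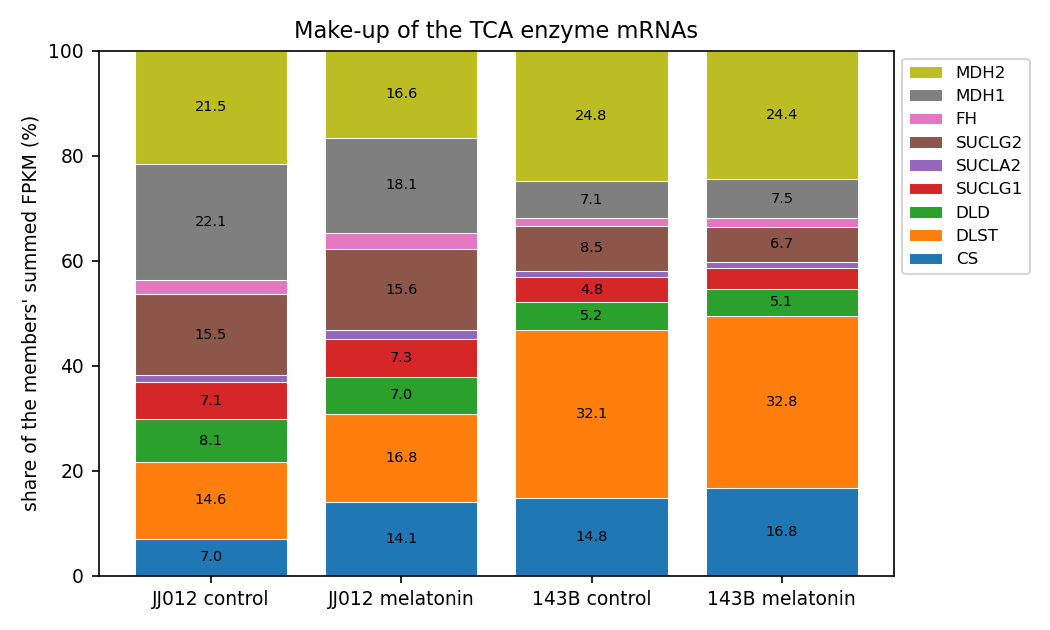
Share (%) of each member in the summed FPKM of the 9 members, stacked to 100% for each library. CS goes from 7.05% to 14.1% in JJ012, and DLST makes up 32.1% and 32.8% in 143B.

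To compare the untreated lines, the JJ012 control was set against the 143B control. Cell line, culture and library cannot be told apart here. In JJ012, 5 members were higher (DLD, SUCLG1, SUCLG2, FH and MDH1) and 0 were lower, against 41.3% and 27.4% of 16929 tested genes. The median log2 difference was 1.09 over the members and 0.29 over all tested genes. By TMM, TPM and centring on the median gene, 60.1% of called genes being higher in JJ012 became 49.6%, 49.3% and 48.6%, and with each of these 3 scalings 5 members were higher and 2 were lower (CS and DLST).

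MDH1 differed most, with a 4.89-fold higher CPM in JJ012 (4.52 to 5.29) and a log2 difference of 2.18. FH was 3.02-fold higher (2.65 to 3.46), SUCLG2 2.87-fold (2.61 to 3.15), DLD 2.48-fold (2.25 to 2.73) and SUCLG1 2.31-fold (2.06 to 2.59). MDH1 serves the cytosolic shuttle, and DLD, SUCLG1, SUCLG2 and FH act between 2-oxoglutarate and malate. On that stretch DLST had the lower value in JJ012 and SUCLA2 was not called, so its genes did not all differ alike. SUCLA2, with a CPM ratio of 1.71 (1.45 to 2.01) and a log2 difference of 0.53, and MDH2, with a CPM ratio of 1.37 (1.30 to 1.46) and a log2 difference of 0.45, were not called, and MDH2 turned to -0.06 when the length trend was subtracted. CS and DLST had negative log2 differences of -0.39 and -0.46, with a CPM 1.33-fold (1.25 to 1.42) and 1.38-fold (1.31 to 1.46) higher in 143B. The ratio of DLD to DLST was 3.43-fold higher in JJ012 (3.07 to 3.82), and that of MDH2 to MDH1 was 3.56-fold higher in 143B (3.23 to 3.91).

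**Figure D4:**
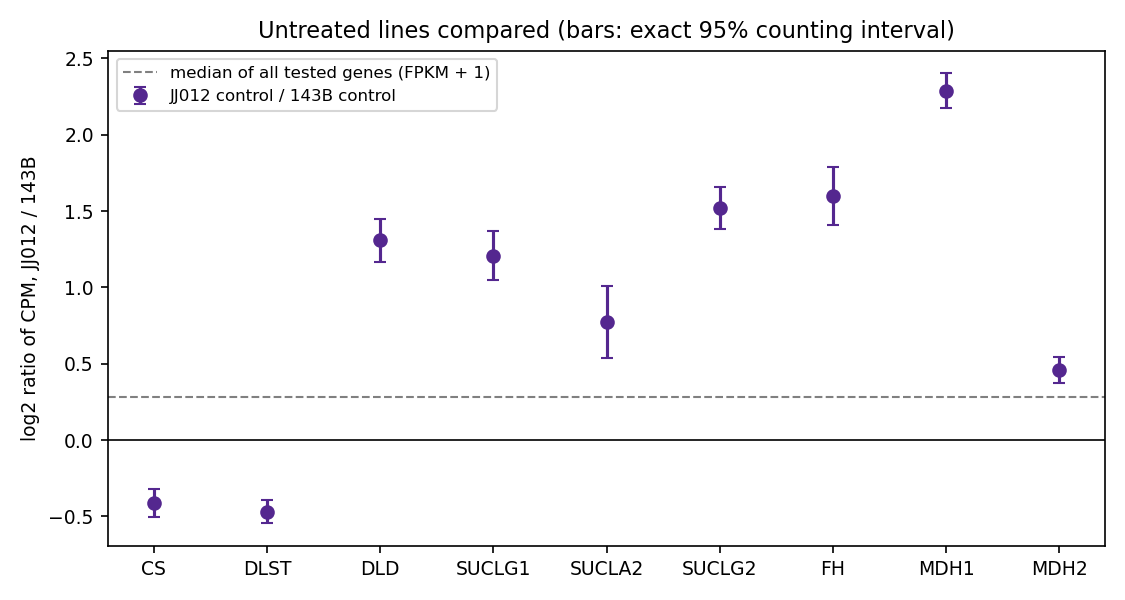
Log2 ratio of CPM, JJ012 control over 143B control, for each member, with bars for the exact 95% counting interval. The dashed line is the median log2 difference of all tested genes on the FPKM + 1 scale (0.29). MDH1 is the highest point, and CS and DLST lie below 0.

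Genes around these enzymes were followed in lists. Of the other steps of the cycle, OGDH, the first subunit of the 2-oxoglutarate dehydrogenase complex, rose in JJ012 from 16.49 to 28.43 FPKM, by 0.75 on the log2 scale. With a threshold of 1 it was not called. It was at 7.70 and 11.59 FPKM in 143B, with a log2 fold change of 0.53, just under the threshold. OGDH was thus above DLD and below DLST in melatonin-treated JJ012. MRPS36, a small subunit that binds the 2-oxoglutarate complex, had log2 fold changes of 0.31 in JJ012 and 0.04 in 143B. OGDHL, a paralog of OGDH, was at or below 0.25 FPKM in JJ012 and not tested there, and had a log2 fold change of 0.17 in 143B.

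The pyruvate dehydrogenase complex feeds acetyl-CoA to CS, its kinases switch it off and its phosphatases switch it on. In JJ012, 3 of the 10 tested genes of this list rose and 0 fell, beside 19.6% and 18.6% of all tested genes. The catalytic phosphatase subunits PDP1 (9.12 to 30.03 FPKM, log2 fold change 1.62) and PDP2 (3.74 to 12.89 FPKM, 1.55) rose more than CS, and the regulatory subunit PDPR, which has near-identical copies in the genome, rose by 0.62. In TPM 5 genes of the list rose, and with the length trend subtracted 2 rose (PDPR was then at 0.33) and 1 fell. In 143B, 0 of 10 rose and 2 fell, the kinases PDK1 (28.13 to 13.41 FPKM, -1.02) and PDK4 (1.77 to 0.60 FPKM, -0.79), beside 6.09% and 6.65% of all tested genes. With the filter of 5 FPKM or a threshold of 1, 1 fell, and PDK4 had passed the filter of 1 FPKM only through the control. In JJ012 PDK1 had a log2 fold change of 0.13 and PDK4 of 0.27.

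DLST and DLD act with lipoic acid. The counts below stand beside 19.6% rising and 18.6% falling of all tested genes in JJ012, and 6.09% and 6.65% in 143B. Of 5 tested lipoylation genes, the lipoyltransferase LIPT1 rose by 0.66 and the iron-sulfur protein NFU1 fell by 0.65 in JJ012, while 0 were called in 143B, where NFU1 had a log2 fold change of 0.57. The call of NFU1 in JJ012 was lost in TPM (-0.44), by TMM (-0.58, just short of the threshold) and with the length trend subtracted (-0.32), and in 143B 1 lipoylation gene rose in TPM, in CPM, by TMM, with a pseudocount of 0.1 and without mitochondrially encoded genes in the total. Of 5 tested genes of the other complexes that use DLD, 2 rose in JJ012, namely DBT of the branched-chain complex (2.29 to 5.58 FPKM, 1.00) and DHTKD1 of the 2-oxoadipate complex (0.66), and 0 were called in 143B, where 1 rose in TPM, in CPM and with a pseudocount of 0.1. The other 3 tested in JJ012 were not called, with log2 fold changes of -0.17 (BCKDHA), 0.01 (BCKDHB) and 0.41 (GCSH).

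Of the genes that bring carbon into the cycle or take it out, 2 of 12 rose and 1 fell in JJ012. This count and those that follow stand beside 19.6% rising and 18.6% falling of all tested genes in JJ012, and 6.09% and 6.65% in 143B. The cytosolic aspartate aminotransferase GOT1, which works with MDH1 in the malate-aspartate shuttle, rose from 14.49 to 32.71 FPKM (1.12), and the glutamate dehydrogenase GLUD1 rose by 0.66, or 0.35 and no longer called with the length trend subtracted. In TPM 4 genes of this list rose. The alanine aminotransferase GPT2 fell from 11.12 to 5.45 FPKM (-0.91). In 143B, 1 of 11 fell, the pyruvate carboxylase PC (8.28 to 4.83 FPKM, -0.67), which makes oxaloacetate. Of the mitochondrial carriers 0 of 9 were called in JJ012, but 2 rose in TPM, 1 by TMM and 1 with the length trend subtracted, and 1 of 8 rose in 143B, the oxoglutarate-malate carrier SLC25A11 (5.37 to 9.64 FPKM, 0.74).

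Of the regulators of mitochondrial genes, 4 of 7 rose in JJ012, beside 19.6% of all tested genes. These were the coactivators PPARGC1A (0.57 to 3.65 FPKM, from 120 to 641 counts, 1.57), PPRC1 (3.85 to 11.74 FPKM, 1.39) and PPARGC1B (0.34 to 1.07 FPKM, 0.63), and the nuclear receptor ESRRA (19.65 to 30.60 FPKM, 0.61). The count was 5 in TPM, 3 without mitochondrially encoded genes in the total (ESRRA was then just under the threshold), 3 with the length trend subtracted (PPARGC1B was then at 0.31) and 2 with the filter of 5 FPKM or a threshold of 1. PPARGC1A and PPARGC1B were below 1 FPKM in the JJ012 control and passed the filter only through the melatonin library. Such genes could be called only as having risen, so the count is not read against the share of all genes. The motif of estrogen-related receptors was found in the promoter of SUCLA2 alone among the members. In 143B, 0 of 6 tested regulators were called, beside 6.09% rising and 6.65% falling of all tested genes. All lists were set with results of these data known, so their counts are descriptions.

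**Figure D5:**
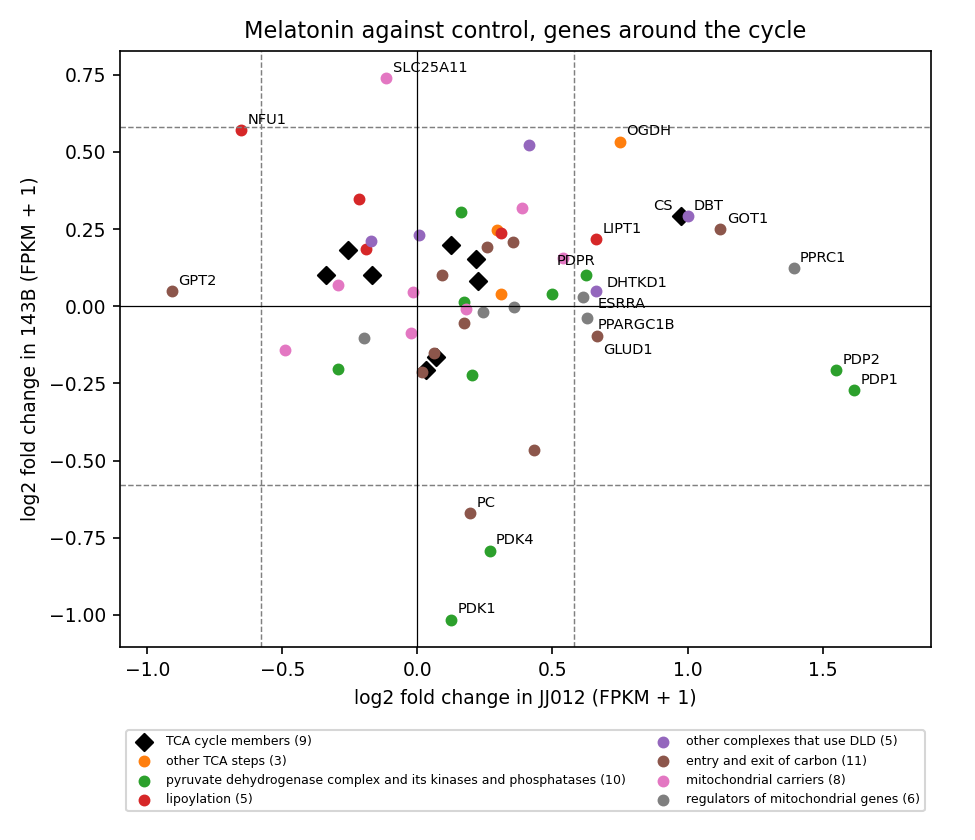
Log2 fold change with melatonin (FPKM + 1) in JJ012 (x axis) and 143B (y axis) for members (black diamonds) and genes of 7 lists around the cycle (colors) that were tested in both lines, with the number plotted in parentheses. Dashed lines mark -0.58 and 0.58. CS is the member to the right of the JJ012 threshold, with PDP1 and PDP2 furthest right and PDK1 lowest.

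Between the untreated lines, the called genes of these lists were mostly higher in JJ012. Of the other steps OGDH and MRPS36 were higher and OGDHL lower, of lipoylation genes 4 of 5 were higher, of the other complexes that use DLD 3 of 5, and of mitochondrial carriers 6 of 9, with 0 lower in these last 3 lists. Of the genes for entry and exit of carbon 6 of 12 were higher and 1 lower, and of the pyruvate dehydrogenase list 3 of 10 were higher (PDHA1, PDHB and DLAT) and 1 lower (PDK1). The regulators were split, with 2 of 6 higher and 2 lower. The shares stand beside 41.3% higher and 27.4% lower over all tested genes. Some of these genes passed the filter through 1 control only, among them GPT (higher in JJ012) and OGDHL and PPARGC1B (lower). The direction of such calls was fixed by the filter, so the counts are not read against these shares. Of all called genes 60.1% were higher in JJ012, which became 49.6% by TMM and 49.3% in TPM.

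The 3 genes whose profile over the 4 libraries was nearest to the mean log2(FPKM + 1) of the members were IPO8 (13.01, 14.24, 6.88 and 7.51 FPKM in the JJ012 control, melatonin-treated JJ012, the 143B control and melatonin-treated 143B), BROX and ZNF579. Their Euclidean distances, after centring each profile, were 0.0345, 0.0501 and 0.0549 among 4679 genes with at least 5 FPKM in each library. These 3 genes resemble the mean over the members, from which single members depart. CS and DLST had lower FPKM in the JJ012 control than in the 143B control, and CS rose with melatonin in JJ012.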

How the data were processed

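RNA was measured in JJ012 and 143B cells from suspension culture, with 1 control and 1 melatonin library per line. The deposited table holds counts (whole numbers, not normalized) and FPKM. The authors made the FPKM by dividing each count by exonic length and by the library total, and gave them to 2 decimals. Exonic lengths in bases and gene positions are deposited as well. The submitters' processing notes name cutadapt 1.9.1, HISAT2 2.2.1, HTSeq 0.6.1, DESeq2 and the build hg38. The annotation release and the strand setting are not given in the sources used here. Columns were matched to samples by cell line, with the suffix T taken to mean melatonin.

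Genes were tested where either library of a comparison reached 1 FPKM. A pseudocount of 1 was added to the FPKM before log2 fold changes were taken, and genes were called at an absolute value of 0.58. CPM are counts scaled to the library total, and a floor of 3 counts corresponds to between 0.156 and 0.189 CPM. No member was at the floor, and all 9 passed the filter in each comparison. CPM ratios had exact (Clopper-Pearson) 95% intervals, and differences of ratios had normal intervals from the counts. All members were named, of the other lists the called genes and the other steps of the cycle, and the 3 nearest profiles. Some genes of this rule are not reported here. Members and lists were chosen with earlier results of these data known. Alternatives were no filter on low values, a minimum of 5 FPKM, a pseudocount of 0.1, TPM, CPM, centring, TMM factors (edgeR 4.0.16 in R 4.3.3), a total without mitochondrially encoded genes, a threshold of 1, and subtraction of a running median of 501 genes over exonic length. The TPM differences between lines, the transcript lengths of GENCODE 29 and the ratio of CS to MDH2 were added after seeing the data. The procedures were tested on simulated data. Python 3.11.15 with numpy 2.4.6, pandas 2.3.3, scipy 1.17.1 and matplotlib 3.10.9 was used.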

Additional observations from a re-analysis of the deposited data

Results flagged for a closer look

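The log2 CPM ratio of melatonin against control differed between the lines, with a 95% counting interval of the difference (JJ012 minus 143B) that left out 0, for 6 of the 9 members. The share of all tested genes with such an interval was not taken, so nothing particular to the members is read from this count. The difference was 0.72 for CS, -0.29 for DLD, 0.27 for SUCLG1, 0.26 for SUCLG2, -0.47 for MDH1 and -0.45 for MDH2. CS was higher with melatonin in both lines, and more so in JJ012. In CPM, MDH1 and MDH2 were lower with melatonin in JJ012 and higher in 143B, but in TPM the JJ012 log2 fold change of MDH1 was 0.01. Which members are flagged also depends on the scaling. In TPM the difference was 0.0381 for DLD, -0.13 for MDH1 and -0.12 for MDH2, and it was 0.40 for DLST and 0.51 for SUCLA2, which were not flagged. The intervals cover counting error only, and with 1 library per condition the spread between cultures was not tested.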

How the results depend on the processing

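The call of CS in JJ012, the absence of member calls in 143B and the 5 or 6 members higher in JJ012 than in 143B were found under every alternative tried, except that with a threshold of 1 the members that rose in JJ012 went from 1 to 0. The members lower in JJ012 than in 143B went from 0 to 2 with TPM, with centring and with TMM, and to 1 with the length trend subtracted. In TPM, the differences between the lines in the melatonin change were 1.05 for CS, 0.40 for DLST, 0.0381 for DLD (reversed), 0.60 for SUCLG1, 0.51 for SUCLA2, 0.59 for SUCLG2, 0.18 for FH, -0.13 for MDH1 and -0.12 for MDH2. TPM also moved the share of JJ012 calls that rose from 51.4% to 68.8%. As ratios of counts, without length, SUCLA2 to SUCLG2 was 0.241 and 0.291 in JJ012 and 0.405 and 0.517 in 143B, MDH2 to MDH1 was 0.711 and 0.672 in JJ012 and 2.53 and 2.36 in 143B, DLD to DLST was 0.619 and 0.470 in JJ012 and 0.181 and 0.176 in 143B, and SUCLG1 to both beta subunits was 0.495 and 0.490 in JJ012. With the length trend subtracted, the differences between the untreated lines reversed for MRPS36 (-0.15), GLRX5 (-0.12), BCKDHA (-0.17) and GPT (-0.0204). Over 1350 alternative values, 1006 held, 339 moved beyond counting error or a factor of 1.5 or changed in rank, and 5 reversed, and the cause was not tested. Only called genes, and line differences whose interval left out 0, could be labelled as reversed. The sign turns of members that were not called are therefore counted as held or moved. Across tested genes, which are not independent, Spearman's rho between log2 fold change and exonic length was 0.24 (JJ012) and -0.01 (143B). Counting error was widest for SUCLA2, with between 225 and 482 counts per library, and the lack of replicates limits every comparison.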
